A study of Caenorhabditis elegans with 6 samples.

Results

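The mitochondrial unfolded protein response (UPRmt) was followed in heat-shocked C. elegans through 9 genes, hsp-6, hsp-60, hsp-75, lonp-1, clpp-1, atfs-1, ubl-5, dve-1 and haf-1, chosen by their WormBase symbols for their roles. All 9 were found among the 31180 genes of the comparison of heat shock (HS) with control (CTRL). N2 wild-type cultures at the L4 stage were grown on OP50 bacteria at 20°C, and the HS animals were then held at 35°C for 4 h. RNA of whole worms was depleted of ribosomal RNA, and 3 independent libraries were made per condition. Neither condition carried a transgene, a mutation or an RNAi treatment.

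In the UPRmt, mitochondria that cannot fold or import their proteins raise the nuclear expression of mitochondrial chaperones and proteases. In worms the bZIP factor ATFS-1 carries this signal: it is imported into healthy mitochondria and degraded there by the LON protease, and it enters the nucleus when import fails. The promoters of hsp-6 and hsp-60 are the usual reporters of the response, which is known mainly from worms with impaired respiration or mitochondrial translation.

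The values are estimates of the authors' deposited comparison. They consist of baseMean, which is the normalised count averaged over the 6 libraries, and of the log2 fold change (HS relative to CTRL) with a standard error (SE). From these changes and SEs, Wald tests were run anew and adjusted over the 21477 genes for which an adjusted p-value exists. A gene passed the test with an adjusted p under 0.01, and a 2-fold call also needed a change of at least 2-fold and a baseMean of at least 100. Values of single libraries were not analysed here, so each error is the SE of the fitted change, and the levels given for CTRL and HS are those implied by baseMean and the fold change with 3 libraries on each side. Library scaling factors were read from genes with a single read in 1 library. They lay between 1.43 and 1.47 for the CTRL libraries and between 0.536 and 0.923 for the HS libraries. Such factors can reflect the mix of transcripts as well as read depth, and read totals were not analysed here. Fewer cells of a type and less RNA per cell cannot be told apart in RNA of whole worms. All 10 tissue markers looked up were detected, at a baseMean from 67.3 to 97339. Among them the epidermal collagens rol-6 and dpy-7 rose 59.8-fold and 48.9-fold, and the muscle myosin myo-3 rose 2.39-fold. The germ line receptor glp-1 fell by 0.85 on the log2 scale. The other 6 had log2 fold changes from -0.61 (rab-3) to 1.07 (unc-54), with the germ line gene pgl-1 at -0.27, and did not pass. The bearing of these marker changes on the values below was not tested.

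The heat shock raised 1 of the 9 genes, the mitochondrial chaperone hsp-6, and lowered 1, the regulator atfs-1, whereas 7 did not pass the test. The mitochondrial chaperonin gene hsp-60, also used as a UPRmt reporter, had nearly the same change as hsp-6 with a larger error and missed the threshold. The proteases lonp-1 and clpp-1 and the regulators ubl-5, dve-1 and haf-1 had log2 fold changes between -0.32 and 0.40. Among all genes tested, 13.8% rose and 7.16% fell at this threshold. Among the 9828 protein-coding genes with a baseMean of at least 100, the shares were 13.2% and 12.8%, so 1 rise and 1 fall among 9 genes lies near the background. Both calls were lost when a t distribution (4 degrees of freedom) was used, under which 0 of all tested genes passed. With this distribution 3 of the 9 genes had an unadjusted p under 0.05, for which no share of all genes was computed. By the Wald test at an unadjusted p under 0.05, 2 of the 9 genes rose and 1 fell, beside 26.5% rises and 15.1% falls among all tested genes. The median log2 fold change of the 9 genes was 0.02, against 0.26 for all tested genes and -0.09 for the expressed protein-coding genes.

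**Figure D1:**
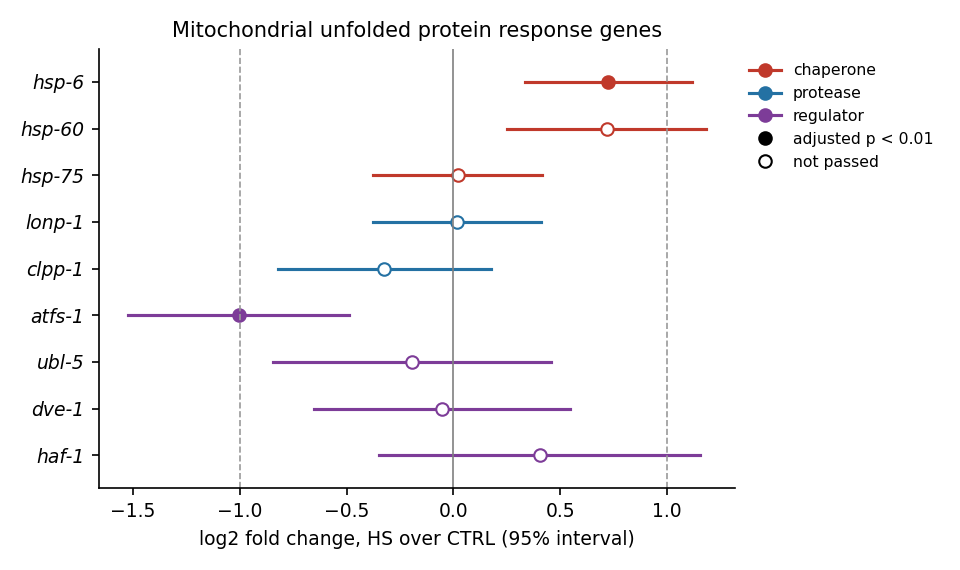
Log2 fold change (HS relative to CTRL) for the 9 genes, with 95% confidence intervals from the SE of the 3 and 3 libraries, and filled points passed at an adjusted p under 0.01 and dashed lines mark a 2-fold change. Of the 9 genes, hsp-6 lies above 0 and atfs-1 below 0 as filled points, and the interval of hsp-60 is also above 0.

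hsp-6 encodes the mitochondrial HSP70, which pulls proteins through the inner membrane and folds them in the matrix. The gene (WBGene00002010) lies on the minus strand of chromosome V from 4824124 to 4826760 (WBcel235) and has 4 exons. Its implied level went from 8687 normalised counts in CTRL to 14369 in HS. The rise was 1.65-fold (log2 fold change 0.73, SE 0.20, 3 against 3 libraries), with a 95% confidence interval of 1.26-fold to 2.17-fold and a Wald adjusted p of 0.0019. This interval includes 2-fold, but the estimate did not meet the 2-fold call.

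hsp-60 encodes the mitochondrial chaperonin, a ring-shaped folding chamber. The gene (WBGene00002025, chromosome III, 1619742 to 1625803, plus strand, 6 exons) had implied levels of 9848 normalised counts in CTRL and 16195 in HS. This is a ratio of 1.64 (log2 fold change 0.72, SE 0.24, 95% confidence interval 1.19-fold to 2.27-fold) with an adjusted p of 0.0118, just outside the threshold. Adjusted only over genes with a baseMean of at least 100, the p of hsp-60 was 0.0090, and centred on the median protein-coding gene it was 0.0042, both of which pass. The changes of hsp-6 and hsp-60 are thus alike in size, and the difference in their calls rests on the error of hsp-60.

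hsp-75 encodes the mitochondrial member of the HSP90 family, the worm counterpart of human TRAP1. The gene (WBGene00020110, chromosome III, 7223233 to 7226707, minus strand, 9 exons) had implied levels of 2291 normalised counts in CTRL and 2323 in HS. The log2 fold change was 0.02 (SE 0.20), with an interval from -0.38 to 0.42 and an adjusted p of 0.952. A rise of the size seen for hsp-6 lies outside this interval, but the direct difference between hsp-6 and hsp-75 was 0.71 (SE 0.28) with an adjusted p of 0.0519 over all member pairs and did not pass.

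The mitochondrial proteases remove proteins that cannot be folded. lonp-1 (WBGene00016391, chromosome I, 10676922 to 10682374, minus strand, 13 exons) encodes the LON protease of the matrix. Its implied levels were 2550 normalised counts in CTRL and 2583 in HS, a log2 fold change of 0.02 (SE 0.20, interval -0.37 to 0.41, adjusted p = 0.955). The values of lonp-1 and hsp-75 were therefore nearly level between conditions, with the smallest changes of the 9 genes.

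clpp-1 (WBGene00014172, chromosome II, 10300714 to 10302842, minus strand, 5 exons) encodes the proteolytic subunit of the ClpXP protease, which produces the peptides that were linked to UPRmt signalling in worms. Its implied levels were 499.9 normalised counts in CTRL and 399.6 in HS, a log2 fold change of -0.32 (SE 0.25, interval -0.82 to 0.18, adjusted p = 0.338). The gene overlaps mdt-22 on the opposite strand, which fell by 1.30 on the log2 scale (adjusted p = 0.0028), and the annotation also places in it the noncoding gene ZK970.11, for which no value was used here, and the tRNA genes WBGene00014635 and WBGene00014638. Both tRNA genes were scarce, with a baseMean of 9.82 and 7.51. WBGene00014635, on the opposite strand, rose by 7.26 on the log2 scale (SE 1.73, Wald adjusted p = 0.00025), and WBGene00014638 had a log2 fold change of 1.51 (adjusted p = 0.493). The libraries were stranded, but the strand setting of the counting is not given in the sources used here, so reads of clpp-1 and these genes may not be separated.

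atfs-1 (WBGene00013878, chromosome V, 14193663 to 14197700, plus strand, 8 exons), the transcription factor at the centre of the response, fell. Its implied level went from 948 normalised counts in CTRL to 472 in HS. The fall was 2.01-fold (log2 fold change -1.01, SE 0.26), with an interval of 1.40-fold to 2.87-fold and an adjusted p of 0.00105. atfs-1 was the only one of the 9 genes with a 2-fold call, and it lies just inside the limit: after centring on the median protein-coding gene the change was -0.92 on the log2 scale, still past the test but not 2-fold. By the 2-fold call, 11.3% of the expressed protein-coding genes rose and 8.14% fell. The nearest coding gene upstream on the same strand, ints-2, ends 1501 bp before atfs-1 and also fell, by 0.86 on the log2 scale (adjusted p = 0.0049). These are RNA levels, and the protein was not measured.

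ubl-5 encodes a ubiquitin-like protein and dve-1 a homeodomain protein, which were described in worms as nuclear partners that act on hsp-60 and related promoters. ubl-5 (WBGene00006726, chromosome I, 5607826 to 5608841, minus strand, 2 exons) had implied levels of 357 normalised counts in CTRL and 312 in HS, a log2 fold change of -0.19 (SE 0.33, interval -0.85 to 0.46, adjusted p = 0.695). dve-1 (WBGene00022861, chromosome X, 427035 to 433812, minus strand, 8 exons) had implied levels of 271 and 261, a log2 fold change of -0.05 (SE 0.31, interval -0.65 to 0.54, adjusted p = 0.914). Centred on the median protein-coding gene, the value of dve-1 took the opposite sign at 0.03. Neither gene can be given a direction from these data.

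haf-1 (WBGene00001811, chromosome IV, 17376427 to 17379310, plus strand, 9 exons) encodes an ABC transporter of the mitochondrial inner membrane that exports peptides. It was the lowest of the 9 genes, with a baseMean of 90.9 and implied levels of 78.3 normalised counts in CTRL and 103.6 in HS. The log2 fold change was 0.40 (SE 0.38, interval -0.35 to 1.16, adjusted p = 0.441), the widest interval of the 9. The coding gene upstream on the same strand, C30H6.5, ends 723 bp before haf-1 and rose by 2.88 on the log2 scale (adjusted p = 1.6e-05), and C30H6.9 overlaps haf-1 on the opposite strand with a log2 fold change of 0.02. The part of reads from C30H6.5 in the value of haf-1 was not tested.

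The size of change that could be called differed between the members because of their SEs, which ranged from 0.20 to 0.38. A gene with the SE of hsp-6 passed from a 1.53-fold change on, whereas haf-1 would have needed a 2.26-fold change and ubl-5 a 2.03-fold change. For hsp-75 and lonp-1 the limit was 1.54-fold and 1.53-fold, for clpp-1 1.72-fold and for dve-1 1.92-fold. Estimates below these limits did not pass at this threshold, but a smaller true change can give an estimate that passes. The limits hold for adjustment over all tested genes. hsp-60, with a limit of 1.66-fold, passed at 1.64-fold when p was adjusted over genes with a baseMean of at least 100.

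**Figure D2:**
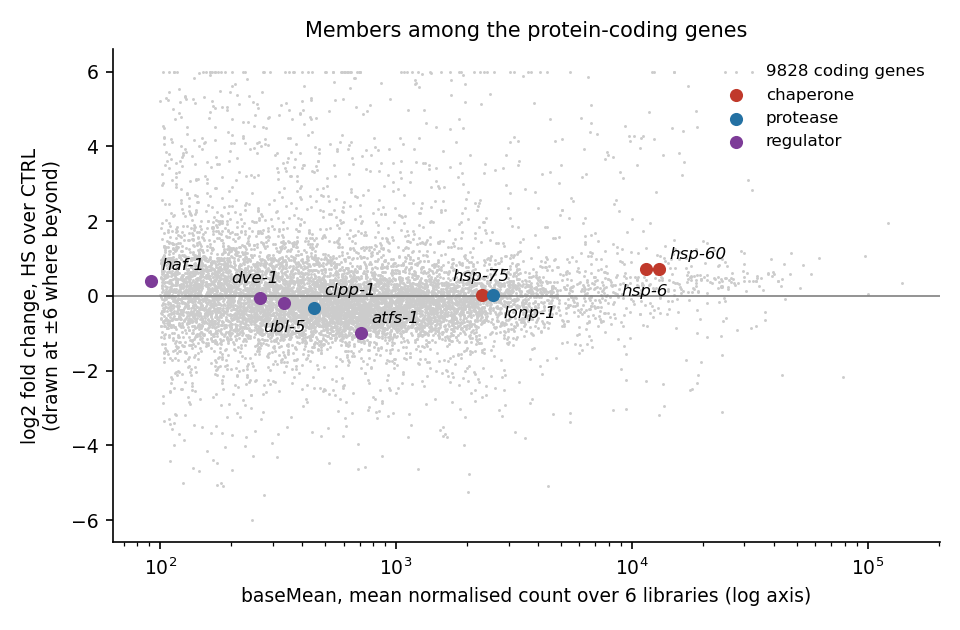
Log2 fold change (HS relative to CTRL) against baseMean for the 9828 tested protein-coding genes with a baseMean of at least 100 (grey) and the 9 UPRmt genes (coloured by role), with log2 fold changes beyond ±6 drawn at that limit. hsp-6 and hsp-60 sit at the high end of expression with log2 fold changes of 0.73 and 0.72, and atfs-1 sits at -1.01.

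Among the expressed protein-coding genes, the log2 fold change of hsp-6 was higher than that of 81.9% and the one of hsp-60 higher than that of 81.7%. atfs-1 was above only 9.89%. hsp-75 and lonp-1 stood close to the middle, above 55.8% and 55.7%. For comparison, the small heat shock gene hsp-16.2 rose 547-fold.

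Levels were compared between genes only per kb of summed exon length, as implied normalised counts. hsp-60 stood at 4643 per kb in CTRL and 7636 per kb in HS, and hsp-6 at 3531 and 5841 per kb. hsp-75 (1071 and 1086 per kb), ubl-5 (1092 and 955 per kb) and lonp-1 (834 and 844 per kb) followed, then clpp-1 (632 and 505 per kb) and atfs-1 (492 and 245 per kb). dve-1, at 81.6 and 78.6 per kb, and haf-1, at 37.1 and 49.1 per kb, were the least abundant. The order of hsp-75, ubl-5 and lonp-1 was not tested, as no spread of the levels between libraries is at hand. By mean level per kb, hsp-60 and hsp-6 were above 96.9% and 95.9% of the expressed protein-coding genes, and atfs-1 was above 48.8%. dve-1 and haf-1 were above 6.31% and 1.13%.

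**Figure D3:**
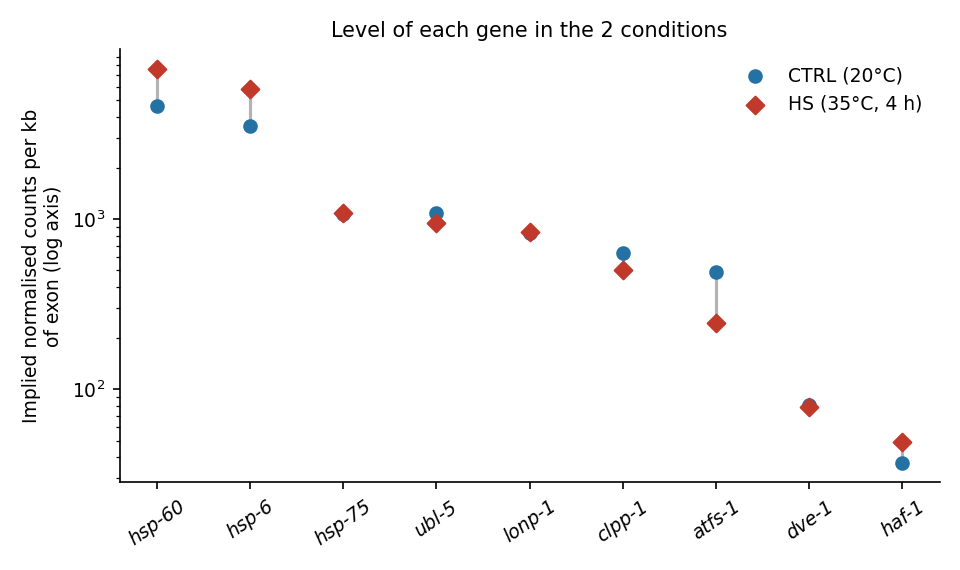
Implied normalised counts per kb of exon (log axis) of the 9 genes in CTRL (circles) and HS (diamonds), in falling order of the mean; no error is drawn because values of single libraries were not analysed. The gap between symbols is widest for atfs-1 (492 to 245 per kb), hsp-6 (3531 to 5841 per kb) and hsp-60 (4643 to 7636 per kb).

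The differences between the members were tested directly for all 36 pairs, with the SEs of 2 genes taken as independent, which shared libraries do not guarantee. At an adjusted p under 0.01, 2 pairs differed, hsp-6 from atfs-1 and hsp-60 from atfs-1. The log2 fold change of hsp-6 exceeded that of atfs-1 by 1.73 (SE 0.33, 95% confidence interval 1.08 to 2.38, adjusted p = 6.46e-06), and that of hsp-60 exceeded it by 1.72 (SE 0.36, interval 1.03 to 2.42, adjusted p = 2.32e-05). hsp-6 itself rose and atfs-1 fell, whereas hsp-60 did not pass on its own. At an adjusted p under 0.05, 7 pairs differed, which added hsp-6 and hsp-60 against clpp-1 and atfs-1 against hsp-75, lonp-1 and haf-1. hsp-6 exceeded clpp-1 by 1.05 (SE 0.32, adjusted p = 0.0143) and hsp-60 exceeded it by 1.04 (SE 0.35, adjusted p = 0.0145). No pair among hsp-75, the proteases, ubl-5, dve-1 and haf-1 differed at that level.

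HSP70, HSP90 and chaperonins exist in several compartments, and the mitochondrial forms were set against those of the cytosol and the endoplasmic reticulum (ER) in 16 pairs. Of these, 5 differed at an adjusted p under 0.01. hsp-6 rose less than the ER chaperone hsp-4 (BiP), which rose 8.65-fold, with a difference of -2.39 (SE 0.32, adjusted p = 4.64e-13). It also rose far less than hsp-70, F44E5.4 and F44E5.5, the inducible HSP70 genes of the cytosol, which rose 331-fold, 259-fold and 210.0-fold. The differences from these were -7.65, -7.29 and -6.99 (SE 0.51, 0.47 and 0.50), and the reads of F44E5.4 and F44E5.5, which are close copies, may be split uncertainly.

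Against hsp-1 and hsp-3, hsp-6 did not differ by this test. hsp-4, from which it did differ, was also expressed in CTRL, at 2901 per kb beside 4909 per kb for hsp-3. hsp-1, the constitutive cytosolic HSP70, rose 2.02-fold and hsp-3, the other ER BiP gene, rose 1.74-fold. The difference was -0.29 for hsp-1 (interval -0.86 to 0.28, adjusted p = 0.730) and -0.07 for hsp-3 (interval -0.66 to 0.52, adjusted p = 0.935). Both intervals include 0, and differences of any size within them remain possible.

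Within the HSP90 family, daf-21 (hsp-90 in the current annotation), the cytosolic member, rose 3.88-fold. hsp-75 lay below it on the log2 scale (difference -1.94, SE 0.33, interval -2.59 to -1.28, adjusted p = 2.38e-08). With a t distribution on 4 degrees of freedom the adjusted p of this difference was 0.0142, which does not pass. The ER member enpl-1 had a log2 fold change of 0.43 (adjusted p = 0.105), and its difference from hsp-75 did not pass (-0.41, interval -0.98 to 0.16, adjusted p = 0.429). hsp-75 was the only mitochondrial chaperone of the 3 whose own interval includes 0.

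hsp-60 was compared with cct-1 to cct-8, the 8 subunits of the cytosolic chaperonin. Of these subunits 4 rose and 0 fell, and all 8 had an unadjusted p under 0.05 for a rise. Among all tested genes, 13.8% rose at the adjusted threshold, and 26.5% had a positive and 15.1% a negative change at an unadjusted p under 0.05. Their log2 fold changes ran from 0.50 (cct-7) to 0.91 (cct-5), with a median of 0.64, around the 0.72 of hsp-60. The 8 differences lay between -0.20 and 0.22, with adjusted p-values from 0.777 to 0.985. Their intervals reach from -0.81 to 0.88, and differences of any size within them remain possible.

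**Figure D4:**
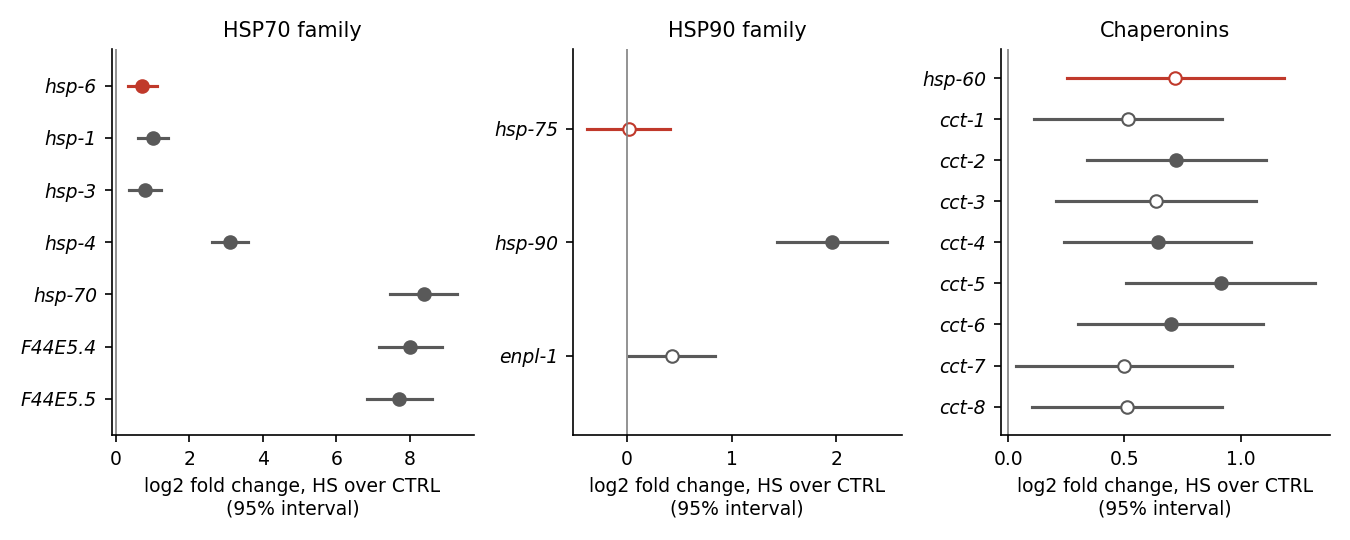
Log2 fold change (HS relative to CTRL) with 95% confidence intervals for the mitochondrial chaperones (red) and their counterparts in the cytosol and ER (grey), by family, each panel with its own scale, and filled points passed at an adjusted p under 0.01. hsp-6 (0.73) lies beside hsp-1 (1.02) and hsp-3 (0.80), hsp-75 (0.02) lies below hsp-90 (1.96), and hsp-60 (0.72) lies within the range of the cct genes.

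A wider list of 40 genes of mitochondrial protein folding, proteolysis, import and UPRmt control, which holds the 9 genes, was followed in the same way. On it 2 genes rose, hsp-6 and jmjd-3.1, and 3 fell, atfs-1, hda-1 and D2030.2. The shares of rises and falls given above were 13.8% and 7.16% for all tested genes. For the expressed protein-coding genes, which are closer in level to this list, they were 13.2% and 12.8%. The median log2 fold change of the list was -0.10. Without the 9 genes, 1 of 31 rose and 2 fell.

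The 13 import genes encode subunits of the outer and inner membrane translocases and their partners. By the Wald test 0 of them passed in either direction, and at an unadjusted p under 0.05 there were 0 rises and 2 falls. Among all tested genes the unadjusted shares were 26.5% rises and 15.1% falls. Unadjusted shares were not computed for the expressed protein-coding genes, which are closer in level to this list. At the adjusted threshold 13.2% of those genes rose and 12.8% fell, and their median log2 fold change was -0.09. The log2 fold changes of the import genes ran from -0.73 (tin-44) to 0.16 (tin-9.2), with a median of -0.11. tin-44, the TIM44 homologue that anchors mitochondrial HSP70 at the import channel, came closest with an adjusted p of 0.0107 (SE 0.24). It passed as a fall when p was adjusted over genes with a baseMean of at least 100 (adjusted p = 0.0082) or at least 10 (adjusted p = 0.0087). dnj-21, a DnaJ-domain protein, had a log2 fold change of -0.61 (adjusted p = 0.0587) and ddp-1 one of 0.07. timm-23, a gene of the import channel, stood at -0.02 (SE 0.23).

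Of the 3 further genes listed with the chaperones none passed by the Wald test. At an unadjusted p under 0.05, where 26.5% of all tested genes rose and 15.1% fell, there was 1 rise. This was Y22D7AL.10, which lies 812 bp upstream of hsp-60 on the opposite strand and had a log2 fold change of 0.47 (SE 0.23, adjusted p = 0.106), whereas C34C12.8 and dnj-10 had values of -0.10 and -0.15. The neighbour of hsp-6 in the same arrangement, C37H5.5, lies 599 bp upstream on the opposite strand and rose by 1.45 on the log2 scale (adjusted p = 1.39e-05).

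Of the 5 further genes listed with the proteases, D2030.2 fell by 0.87 on the log2 scale (SE 0.23, adjusted p = 0.0015). K07A3.3 (0.43), spg-7 (0.16), ymel-1 (-0.31) and ppgn-1 (-0.38) did not pass. With lonp-1 and clpp-1, 0 of 7 genes of this group rose by the Wald test, also at an unadjusted p under 0.05. Among all tested genes, 13.8% rose at the adjusted threshold and 26.5% at the unadjusted one. For the expressed protein-coding genes the adjusted share of rises was 13.2%, and no unadjusted share was computed.

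Of the 8 further regulators, the histone demethylase gene jmjd-3.1 rose 2.66-fold (log2 fold change 1.41, SE 0.44, adjusted p = 0.0074), the only 2-fold rise on the wider list. Adjusted over every gene with a p-value, its adjusted p was 0.0107. hda-1, a histone deacetylase gene, fell by 0.73 on the log2 scale (SE 0.22, adjusted p = 0.0042), a call that was lost after centring on the median protein-coding gene (adjusted p = 0.0131). met-2, which encodes a histone methyltransferase, had a log2 fold change of -0.70 (adjusted p = 0.0197), and fshr-1, a receptor gene, one of 0.65 (adjusted p = 0.0738). zip-3, lin-65, jmjd-1.2 and gcn-2 had values of 0.10, -0.15, -0.15 and -0.45. gpd-2 and skn-1, listed as genes under ATFS-1 control, had log2 fold changes of 0.41 each (SE 0.28 and 0.22, adjusted p = 0.254 and 0.142).

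**Figure D5:**
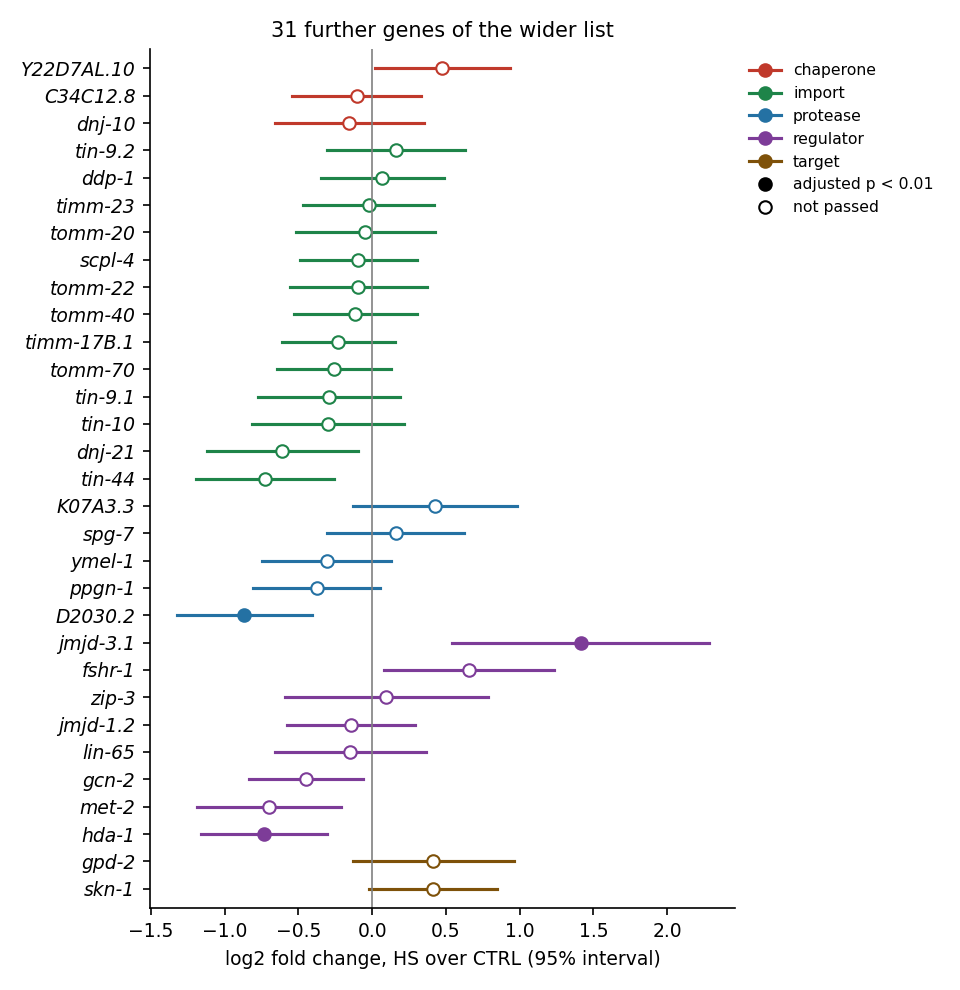
Log2 fold change (HS relative to CTRL) with 95% confidence intervals for the 31 genes of the wider list other than the 9 members, coloured by role, and filled points passed at an adjusted p under 0.01. jmjd-3.1 (1.41) passed as a rise, hda-1 (-0.73) and D2030.2 (-0.87) as falls, and the 13 import genes are all open.

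Beside these nuclear genes, the 12 protein-coding genes of the mitochondrial genome ranged from -1.36 to 0.65 in log2 fold change, around a median of -0.47. Of these, 2 fell and 0 rose by the Wald test, and at an unadjusted p under 0.05 there were 3 falls and 0 rises. The shares among all tested genes were 7.16% falls and 13.8% rises at the adjusted threshold, and 15.1% and 26.5% at the unadjusted one. For the expressed protein-coding genes they were 12.8% falls and 13.2% rises at the adjusted threshold. The SEs of the 12 genes ran from 0.22 to 1.04 and their baseMean from 38.7 to 39974, so the median rests partly on imprecise values. The relation of these transcripts to the nuclear UPRmt genes was not tested.

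The surroundings of the 9 genes differed. lonp-1 and hsp-75 lie 97 bp and 99 bp downstream of spcs-1 and R151.8 on the same strand, with log2 fold changes of 0.04 and -0.49 for these neighbours. vha-9 and vha-10, V-ATPase genes, lie 207 bp and 499 bp upstream of clpp-1 and ubl-5 on the same strand at -0.19 and 0.18. Of the 9 nearest upstream coding genes on the same strand, C30H6.5 rose, ints-2 fell, and the others did not pass. For hsp-6 and hsp-60 these genes, C37H5.14 and Y22D7AL.6, lie 5250 bp and 12890 bp away, and for dve-1 it is F52D1.2 at 12404 bp.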

How the data were processed

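Total RNA of 6 whole-worm samples (3 CTRL, 3 HS) was sequenced by the authors as stranded, paired-end libraries. The authors trimmed reads with fastq-mcf, aligned them with STAR to WS235, counted them with FeatureCounts on Ensembl 88 genes and compared HS with CTRL in DESeq2, with no tool versions in the sources used here. The deposited signal (baseMean) is the mean of counts divided by size factors. The log2 fold change and its SE are as deposited by the authors, and the deposited p-value and adjusted p-value columns served only to tell which genes were tested.

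Wald tests (2-sided, normal) and Benjamini-Hochberg adjustment were computed again from the fold changes and SEs. A p-value is deposited for 31136 genes and an adjusted one for 21477, down to a baseMean of 1.83. Intervals are 95%, from the SE and the normal distribution. Positions, exon lengths and biotypes come from Ensembl 115 for WBcel235, the build of WS235, in which 217 genes have no position, and symbols were found for 28726 genes. The members and lists were chosen with earlier results of these data known. Genes named are the 9 members, genes of the wider list that passed, the 2 largest rises and falls per role, the counterpart chaperones, and genes that overlap a member or lie upstream on its strand. Added after their values were seen are met-2, gcn-2, zip-3, lin-65, jmjd-1.2, timm-23, ymel-1, Y22D7AL.10, C37H5.5, hsp-16.2 and the tissue markers. Genes annotated as rRNA held 46.9% of the summed baseMean. No count model, left-out library or value of a single library was possible with this table. The planned search for heat shock elements in promoters needs sequence and was not run. Calculations were tested on simulated data and used scipy 1.17.1 and numpy 2.4.6 under Python 3.11.15, with matplotlib 3.10.9 for plots and pandas 2.3.3 for tables.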

Additional observations from a re-analysis of the deposited data

How the results depend on the processing

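The number of rises among the 9 genes changed under 6 of 8 alternatives and the number of falls under 2. Without the 2-fold limit, the calls of hsp-6 and atfs-1 were lost only with the t distribution and the test against a 2-fold change. With a t distribution on 4 degrees of freedom, 0 rises and 0 falls passed among the 9 genes, with or without the 2-fold limit, and among the 40 wider genes. Of the 36 member pairs, 0 differed. Under this setting 0 of all tested genes passed, with a smallest adjusted p of 0.0346, so the loss of calls is not particular to these genes. By the t distribution 3 of the 9 genes and 8 of the 40 had an unadjusted p under 0.05, for which no share of all genes was computed. In a test against a 2-fold change, 0 rises and 0 falls passed on both lists, beside 1419 of the 21477 tested genes. An estimate under 2-fold cannot pass this test whatever its error. At an unadjusted p under 0.05 it called 0 of the 9 genes, for which no share of all genes was computed. hsp-6 and hsp-60 made 2 rises with the threshold at 0.05, with adjustment over genes with a baseMean of at least 100 or 10, and after centring. The shares of all genes that pass under these settings were not computed. The counts given here and below for them therefore have no background beside them. Centring left 0 falls of at least 2-fold on either list and gave dve-1 the opposite sign (adjusted p = 0.947). With the threshold at 0.05, the wider list had 5 falls, adding met-2 and tin-44, and 7 member pairs differed. tin-44 also passed with adjustment over genes with a baseMean of at least 100 or 10, which gave 4 falls, and hda-1 was lost after centring, which left 2. Adjusted over every gene with a p-value, jmjd-3.1 was lost, leaving 1 rise on the wider list and 0 of at least 2-fold. Of the 5 differences from chaperones of other compartments, hsp-75 against daf-21 was lost with the t distribution (4 pairs), and 5 pairs passed at 0.05 and with Bonferroni adjustment. No paired analysis was possible because values of single libraries were not analysed here, and no replicate could be left out. The SEs of haf-1 and ubl-5 limit what could be called for them, and an effect of the smaller scaling factors of the HS libraries was not tested.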
